A study of Mus musculus with 223 samples.

Results

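The 9 genes described here were taken by name, by their roles in the migration of cortical neurons, out of the 43629 genes counted in single Htr3a-GFP+ neurons from mouse cortices. They are the chemokine receptors Cxcr4 and Ackr3 with their ligand Cxcl12, the neuregulin receptor Erbb4 with the ligands Nrg1 and Nrg3, and the microtubule genes Dcx, Dclk1 and Pafah1b1. All 9 were matched by Ensembl gene ID and all 9 had a pooled level of at least 1 RPM over all cells. RPM is the number of read pairs counted on a gene per 1000000 read pairs mapped, and a pooled RPM divides the summed pairs of a group of cells by their summed mapped pairs.

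The cells came from mice of both sexes on a C57BL/6 background that carried eGFP under regulatory sequences of Htr3a, a serotonin receptor gene whose transgene labels interneurons (INs) born mostly in the caudal ganglionic eminence (CGE). Cortices of several animals were pooled at E18, the last days before birth, and at postnatal days P2 and P5, and single GFP+ cells were captured on microfluidic chips. There were 82 cells at E18, which carry no type, 66 cells at P2 (22 of type 1, 31 of type 2 and 13 of type 3) and 75 cells at P5 (34, 19 and 22). The 3 types are the assignment of the study's authors, made on the expression of these same cells. No treatment or mutation separates the groups, and the transgene was carried by every cell. The cells at P5 were dissociated in another solution and at a lower temperature than those at E18 and P2.

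Cortical INs are born in the ventral telencephalon and reach the cortex by long tangential routes before they turn into its layers. CXCL12, made by the meninges and by cells along these routes, is sensed by CXCR4, a receptor that signals through Gi proteins, while ACKR3 binds the same chemokine, takes it up and signals mainly through arrestin. ERBB4 is a receptor tyrosine kinase for neuregulins, among them NRG1 and NRG3, and inside the cell doublecortin (Dcx), its relative DCLK1 and LIS1 (Pafah1b1), a regulator of the dynein motor, couple the nucleus and the leading process to microtubules.

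Each age was 1 pool of animals, so cells are not replicates and no test between groups was made. Intervals beside a pooled RPM are exact Poisson and those beside a share of cells are exact binomial, at 95%, and they cover counting error only. A cell was counted as positive for a gene above 10 RPM. The cells held 3707601 to 15840130 mapped read pairs, with a median of 9463033, and 831 to 4886 genes above 10 RPM. Type 3 INs stood apart. At P2 they had a median of 6483871 mapped pairs and 1437 genes above 10 RPM, and at P5 a median of 32.1% of their mapped pairs were counted on genes, against 55.2% and 55.5% in types 1 and 2. Labelled identity held for most cells, since 195 cells (87.4%) had at least 3 of the 7 IN markers Dlx1, Dlx2, Dlx5, Dlx6, Gad1, Gad2 and Htr3a above 10 RPM, with the lowest share in P2 type 3 INs (69.2%), where Dlx2 had no read pair. At E18, 12 of 82 cells had at least 3 of 6 markers of excitatory neurons.

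Cells fell into 4 sets by the prefix of their library names, here called A to D, whose meaning the labels do not give. All 66 P2 cells were in set A, so P2 and that set cannot be told apart. E18 cells (48, 9 and 25) and P5 cells (15, 17 and 43) were spread over sets B, C and D.

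Both receptors of CXCL12 lie on chromosome 1, Ackr3 at chr1:90203980-90216751 on the plus strand and Cxcr4 at chr1:128588199-128592293 on the minus strand (GRCm38), as does Erbb4, at chr1:68032186-69108059 on the minus strand. RefSeq (GRCm38.p6) gave 250 bases before an annotated start for 8 of the 9 genes, all but Nrg1. The windows of the 3 receptors are printed because their detection is described first below. Capitals mark TATAAA, the core of the TATA box, searched on both strands.
Cxcr4, chr1:128592300-128592549, minus strand: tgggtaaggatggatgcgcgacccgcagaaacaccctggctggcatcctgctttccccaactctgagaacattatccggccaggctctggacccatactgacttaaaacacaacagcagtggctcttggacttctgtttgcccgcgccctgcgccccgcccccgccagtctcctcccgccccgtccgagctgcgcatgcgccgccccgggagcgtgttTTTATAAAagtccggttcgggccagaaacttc
Ackr3, chr1:90203730-90203979, plus strand: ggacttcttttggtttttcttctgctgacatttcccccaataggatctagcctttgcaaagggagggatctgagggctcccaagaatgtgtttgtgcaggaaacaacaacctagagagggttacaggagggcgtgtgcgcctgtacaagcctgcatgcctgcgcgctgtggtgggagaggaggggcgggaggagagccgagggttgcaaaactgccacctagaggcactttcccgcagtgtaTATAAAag
Erbb4, chr1:69108060-69108309, minus strand: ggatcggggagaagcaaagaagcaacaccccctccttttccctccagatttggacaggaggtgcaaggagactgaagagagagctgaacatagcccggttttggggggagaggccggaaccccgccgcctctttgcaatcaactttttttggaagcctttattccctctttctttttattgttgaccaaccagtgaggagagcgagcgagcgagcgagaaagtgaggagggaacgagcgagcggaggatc
In Cxcr4 a match on each strand overlapped, starting 32 and 30 bases before the annotated start. Ackr3 had 1 match, starting 8 bases before it, and these letters were not in the Erbb4 window. Dcx also held TATAAA, so that 3 of 8 genes did, against 12.4% of 32851 mouse promoter windows of the same length (4063). TAATTA, the core shared by many homeodomain factors, was in the Dcx window alone of the 8 genes, 39 bases before one of its annotated starts, and in 4.84% of all windows. A match is a description of the letters and not evidence of a site in use.

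Ackr3 was detected mostly in E18 cells of these pools. At E18, 16 of 82 cells were positive (19.5%, interval 11.6 to 29.7%), and after birth 2 of 141 were (1.42%, 0.172 to 5.03%), so the intervals did not overlap. The pooled level was 51.7 RPM at E18 (51.2 to 52.2), 0.267 RPM at P2 and 7.04 RPM at P5. The E18 level came from many cells, the highest 3 at 803, 748 and 670 RPM, and was 43.6 RPM without the highest cell. The P5 level came from 1 type 1 cell at 476 RPM, without which it was 0.00576 RPM. The only P2 cell above 10 RPM, of type 2, had 11.7 RPM. No read pair was counted in type 1 or type 3 INs at P2, or in type 2 or type 3 INs at P5, which allows a share of positive cells of up to 13.6%, 23.1%, 15.8% and 13.6% in turn. On the log2 scale, with 1 RPM added to both levels, the ratio of Ackr3 to its E18 level was -5.38 at P2 and -2.71 at P5. Markers of MGE INs moved with age in the same direction. Of the 82, 66 and 75 cells at E18, P2 and P5, those positive for at least 1 of these markers numbered 62, 14 and 3, with Sst in 52, 7 and 0 cells and Lhx6 in 40, 10 and 3. Their part in the difference of Ackr3 was not tested.

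Within the sets that held both ages, Ackr3 was above 10 RPM in 11 of 48 E18 cells and 0 of 15 P5 cells of set B. The counts were 3 of 9 and 0 of 17 in set C, and 2 of 25 and 1 of 43 in set D. In each of these sets the E18 and P5 intervals of the share overlapped (12.0 to 37.3% and 0 to 21.8% in set B). The pooled levels in set D were 12.3 RPM at E18 and 12.7 RPM at P5, the second being the level of that 1 type 1 cell spread over its set, so the lower P5 level was seen in sets B and C and in the count of cells but not in the pooled level of set D.

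**Figure D1:**
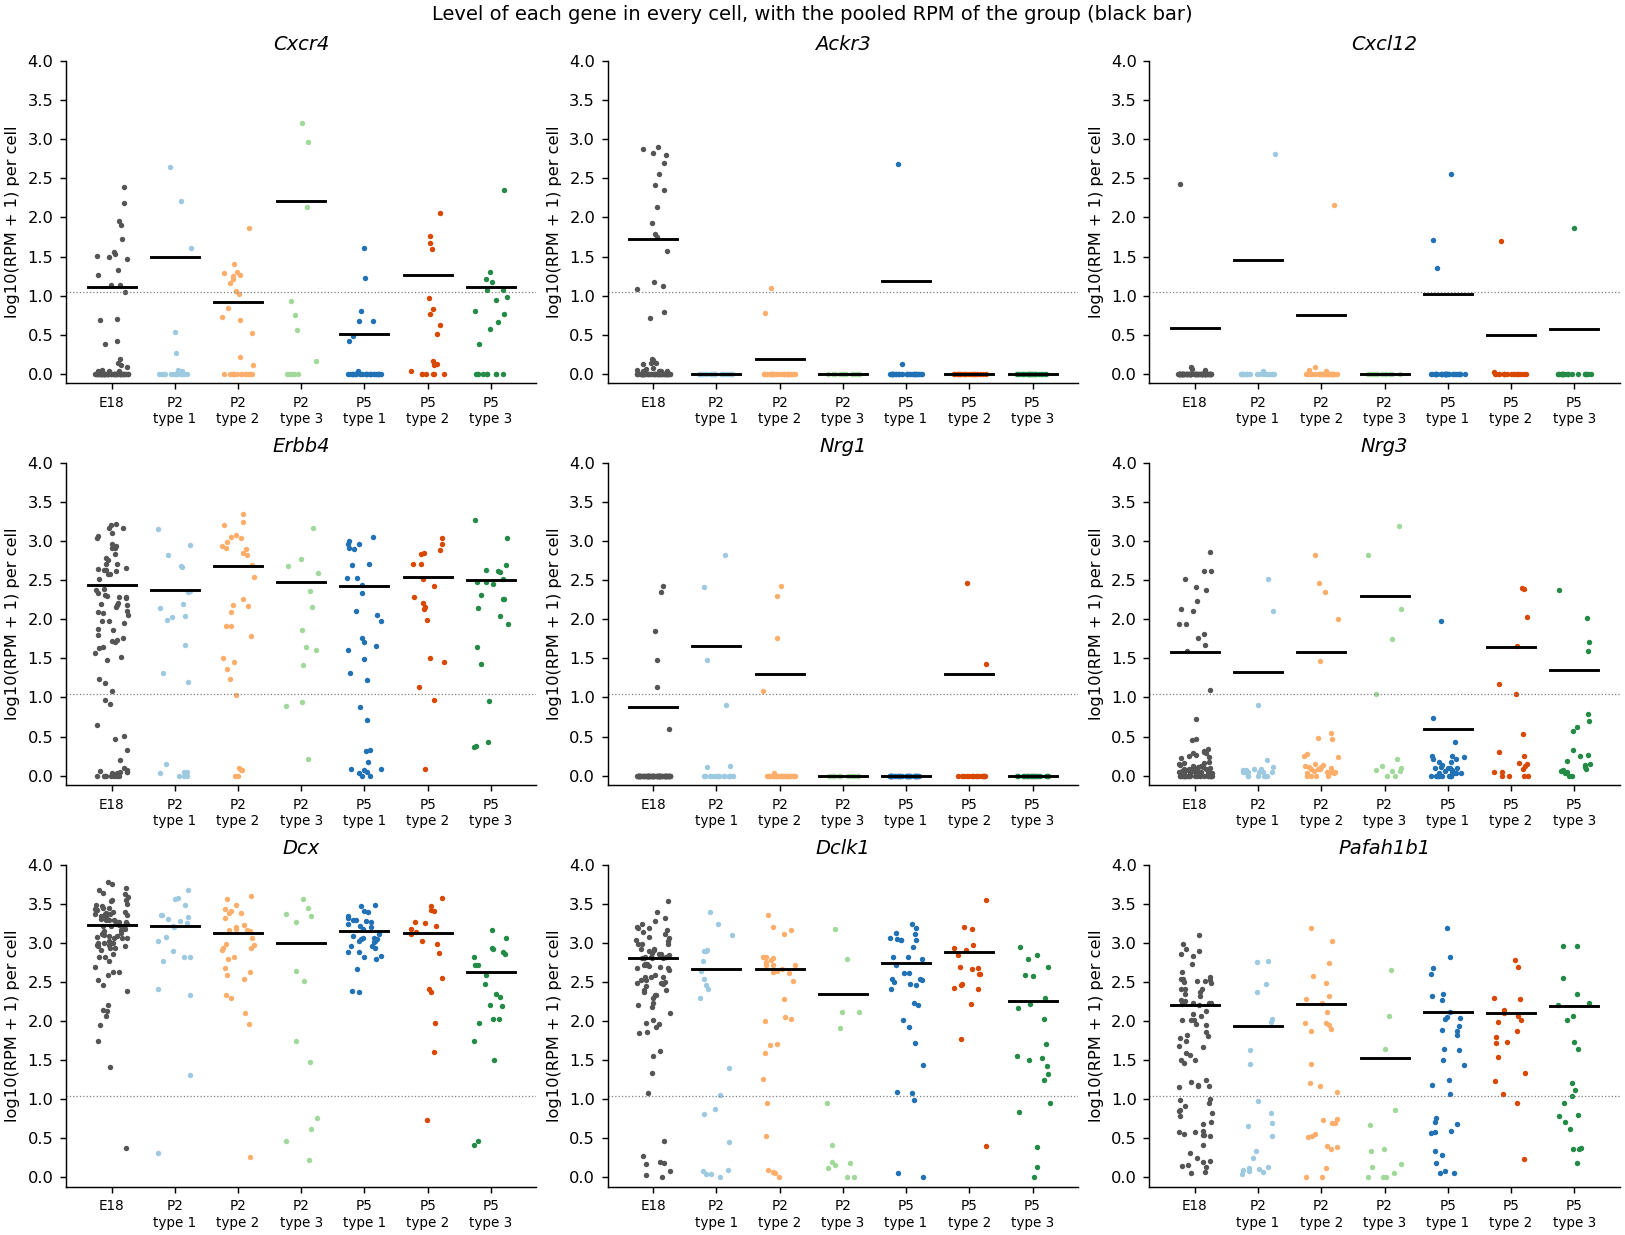
Level of each of the 9 genes in every cell, as log10(RPM + 1) on the vertical axis, for the 7 groups of E18 cells and of types 1 to 3 at P2 and P5. Each point is 1 cell, the black bar is the pooled RPM of the group and the dotted line is 10 RPM. Ackr3 points above the line are nearly all at E18 (16 of 18 cells), Cxcl12 and Nrg1 rest on 8 and 14 cells, and Dcx points lie near or above 100 RPM in most cells of every group.

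The Ackr3+ cells at E18 shared features that the choice of the gene did not use. Sst, the peptide gene of a class of INs from the medial ganglionic eminence (MGE), was above 10 RPM in 15 of the 16 (93.8%, 69.8 to 99.8%) and in 37 of the 66 other E18 cells (56.1%, 43.3 to 68.3%). Dlx5, a homeobox gene of IN precursors, was positive in 12 of 16 (75%, 47.6 to 92.7%) and in 19 of 66 (28.8%, 18.3 to 41.3%). In both genes the intervals lay apart. The related Dlx2 and Dlx6 did not share this order, with 5 of 16 and 22 of 66 cells positive for Dlx2 (31.2% and 33.3%) and 1 of 16 and 7 of 66 for Dlx6 (6.25% and 10.6%). The order was the same in the larger library sets, Sst being positive in 11 of 11 Ackr3+ and 16 of 37 other cells of set B and in 2 of 2 and 17 of 23 of set D, whereas in set C it was 2 of 3 and 4 of 6. Lhx6, which marks INs from the MGE, was positive in 11 of 16 (68.8%, 41.3 to 89.0%) and 29 of 66 (43.9%, 31.7 to 56.7%), where the intervals overlapped. Nkx2-1 and Pvalb were positive in none of the E18 cells, which allows up to 3.66% of them. None of the 12 E18 cells with excitatory markers was positive for Ackr3, and every one of the 16 positive cells had at least 3 IN markers. Across all cells the gene whose log2(RPM + 1) followed Ackr3 most closely was Sst (Pearson r = 0.42, and 0.28 after the mean of each group was removed), under the value of 0.5 set for naming genes of like pattern. The cells of this correlation share pools and library sets, and Sst was itself detected mostly at E18.

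Cxcr4, in contrast, was detected in a minority of cells at every age. It was positive in 15 of 82 cells at E18 (18.3%, 10.6 to 28.4%), 15 of 66 at P2 (22.7%, 13.3 to 34.7%) and 12 of 75 at P5 (16.0%, 8.55 to 26.3%). These shares were within each other's intervals. By type the shares ran from 2 of 34 in P5 type 1 INs (5.88%, 0.720 to 19.7%) to 9 of 31 in P2 type 2 INs (29.0%, 14.2 to 48.04%), and the intervals of all 7 groups overlapped.

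The pooled level of Cxcr4 varied far more than the share of cells did. It was 11.9 RPM at E18, 30.6, 7.31 and 162 RPM in types 1, 2 and 3 at P2, and 2.23, 17.5 and 12.1 RPM in the same order at P5. Without the highest cell of the group it was 7.46 RPM at E18, 5.14 RPM in P2 type 2 INs and 1.07, 8.55 and 4.40 RPM in the types at P5. In P2 type 3 INs 3 of 13 cells were positive, at 1595, 909 and 133 RPM, and the pooled level without the highest was 95.5 RPM. The cell at 1595 RPM had 831 genes above 10 RPM, the fewest of any cell, and 1 IN marker, and the one at 909 RPM had 1374 genes and 3 IN markers. Dcx was at 1.89 and 0.653 RPM in these cells. In P2 type 1 INs the level also rested on a single cell, at 438 RPM, without which it was 9.92 RPM.

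For the types at P2, Cxcr4 was higher in type 3 INs (log2 ratio 3.17 against the other types) and lower in type 2 INs (-3.02), while at P5 it was higher in type 2 INs (1.502) and lower in type 1 INs (-2.30). The type 1 value at P5 was -5.27, -3.49 and -0.71 in library sets B, C and D. The type 2 value at P5 was -0.30 in library set D alone, which holds 14 of the 19 cells, and 4.85 in set B, which holds 2. As a mean of log2(RPM + 1) over cells, which gives each cell the same weight, the type 2 difference at P2 was -0.01.

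CXCR4 and ACKR3 can act in the same cell, where ACKR3 keeps CXCR4 supplied by clearing its ligand. At E18, 5 of 15 Cxcr4+ cells were also Ackr3+ (33.3%, 11.8 to 61.6%), against 11 of the 67 other cells (16.4%, 8.49 to 27.5%), and the intervals overlapped. At P2 no cell was positive for both, and at P5 1 cell was, the type 1 cell at 476 RPM of Ackr3, with 39.8 RPM of Cxcr4.

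The ligand Cxcl12 (chr6:117168535-117181367, plus strand) was positive in 8 cells of all (3.59%, 1.56 to 6.95%) and in no P2 type 3 IN. The highest levels were 648 RPM in a P2 type 1 IN, 363 RPM in a P5 type 1 IN and 266 RPM in an E18 cell. Several of the 8 cells carried markers of other cells. The E18 cell had 5 excitatory markers above 10 RPM, a P2 type 2 cell at 145 RPM had 3 of 4 markers of Cajal-Retzius cells and none of the IN markers, and a P5 type 2 cell at 49.1 RPM had all 4 Cajal-Retzius markers with 5 IN markers. These were the only 2 cells of the series with 3 or more Cajal-Retzius markers. None of the 8 was positive for Ackr3, and 3 were for Cxcr4. No group had more than 3 Cxcl12+ cells, so ratios of its pooled level between groups rest on single cells, and the part of other cell types in them was not tested.

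**Figure D2:**
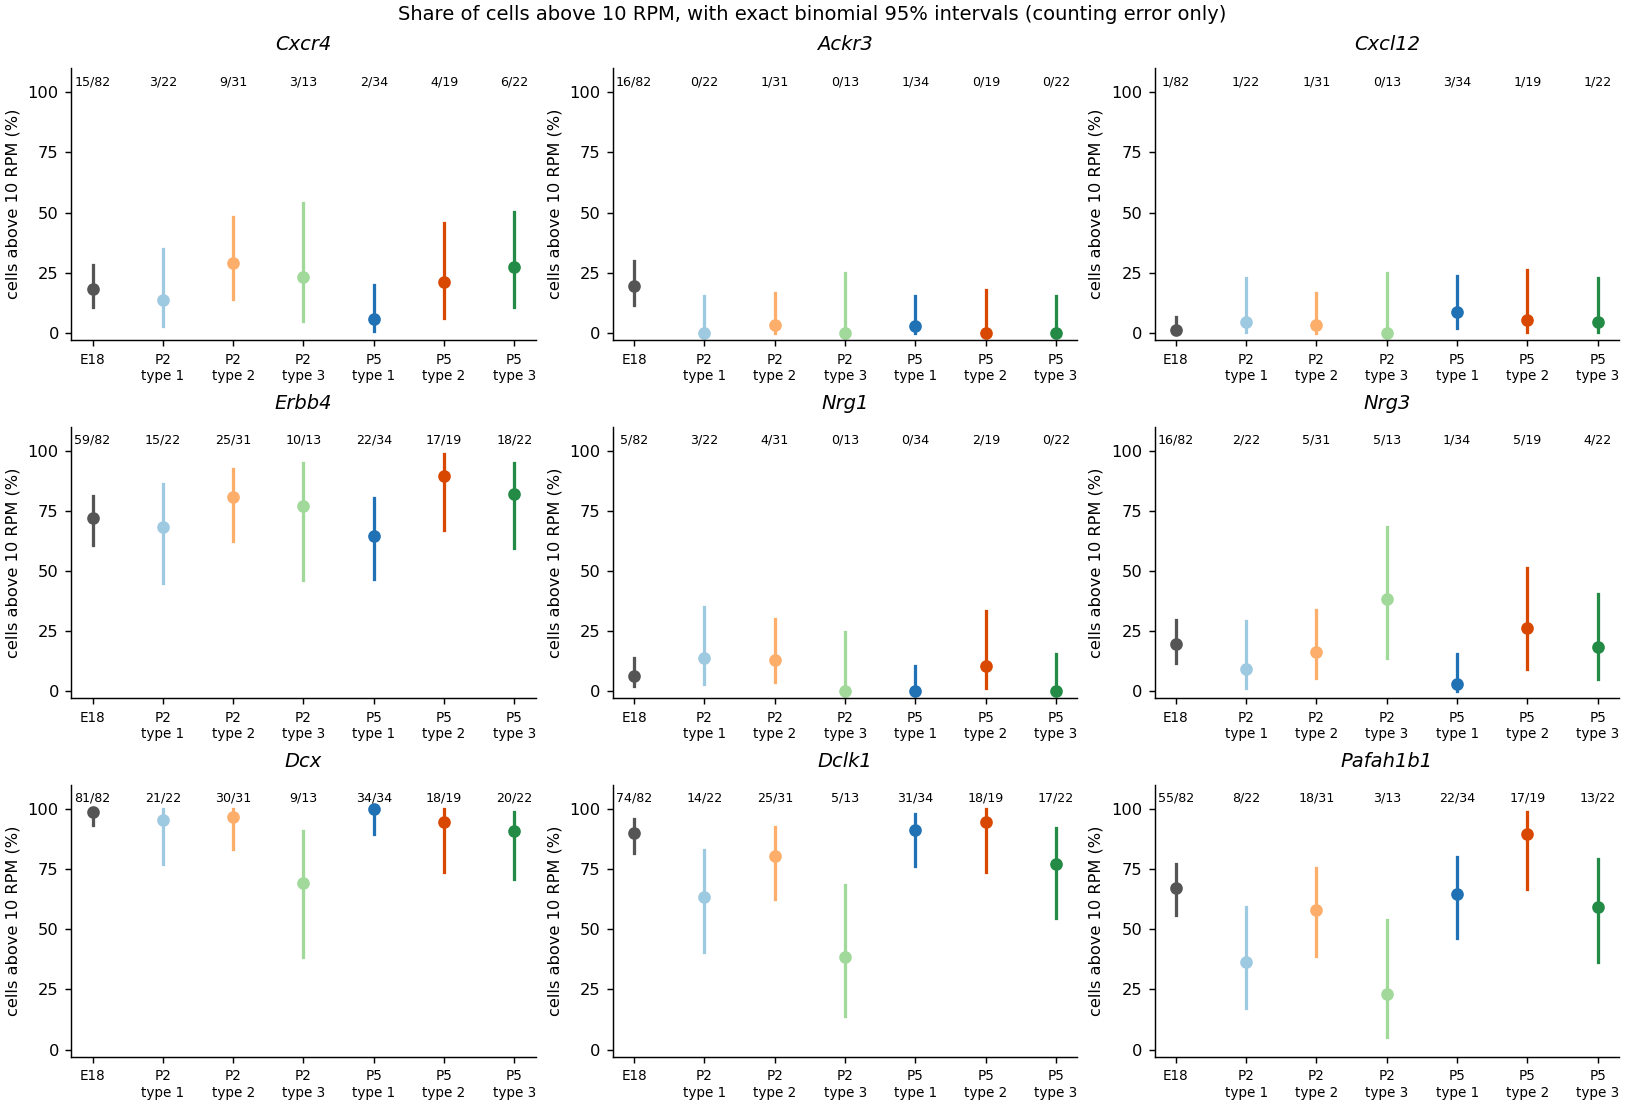
Share of cells above 10 RPM in percent for each of the 9 genes in the 7 groups. Points are shares, lines are exact binomial 95% intervals that cover counting error only, and the fractions above give positive cells over all cells. Ackr3 stands at 19.5% at E18 and at 0 to 3.23% in the types, while Erbb4 lies between 64.7% and 89.5% throughout.

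Erbb4 was detected in most cells of every group. In order of share it was positive in 64.7% of P5 type 1 INs, 68.2% of P2 type 1 INs and 71.95% of E18 cells. Next came 76.9% of P2 type 3, 80.6% of P2 type 2, 81.8% of P5 type 3 and 89.5% of P5 type 2 INs. The shares at the ends, types 1 and 2 at P5, lay outside each other's intervals (46.5 to 80.3% and 66.9 to 98.7%), though these intervals overlapped. Pooled levels ran from 234 RPM (P2 type 1) to 471 RPM (P2 type 2), and 272 RPM at E18. The level varied widely inside each group, from at most 1.34 RPM in the lowest cell to at least 1083 RPM in the highest. As pooled levels no comparison of types or ages passed a log2 ratio of 1 in size, the nearest being 0.91 and -0.89 in types 2 and 1 at P2. As means of log2(RPM + 1), where each cell has the same weight, type 1 INs passed the limit, at -1.46 (P2) and -1.81 (P5). So did type 2 INs, at 1.21 and 1.35. The share of all genes passing on this scale was not computed. Without the highest cell of each side the pooled ratio of type 1 INs at P2 was -1.17. In library set B alone type 1 INs at P5 were at -1.31 and type 3 INs, there 2 cells, at 2.33. Within library sets the pooled ratio of P5 to E18 was -0.07, 1.46 and 0.79 in sets B, C and D. Erbb4 overlaps 8 annotated genes on its own strand. Counted per kilobase of exon, Erbb4 stood at 24.8 RPM per kb over all cells, above Cxcr4 (10.0), Ackr3 (6.52), Nrg3 (5.18), Nrg1 (1.12) and Cxcl12 (0.809). The order did not hold in every group, since in P2 type 3 INs Cxcr4 (89.7) and Nrg3 (29.2) stood above Erbb4 (23.8), and at E18 Ackr3 (15.4) above Cxcr4 (6.59).

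The E18 cells with excitatory markers were the exception. Erbb4 was positive in 2 of the 12 (16.7%, 2.09 to 48.4%) and in 57 of the 70 other E18 cells (81.4%, 70.3 to 89.7%), with medians of 0.416 and 149 RPM. These 12 cells were picked out after the values had been seen, by markers that do not include Erbb4. Their pooled level was 12.1 RPM, against 319 RPM in the others. Most of them, 9 of 12, were in library set D, where 2 of 9 were Erbb4+ against 14 of the 16 other E18 cells. Gad2, which makes GABA, was positive in 5 of 12 and 61 of 70, and Htr3a itself in 5 of 12 and 57 of 70. Without cells that carry 3 or more markers of another cell type, the log2 ratio of Erbb4 between P2 and E18 went from 0.41 to 0.20 and that between P5 and E18 from 0.13 to -0.04.

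Of the neuregulins, Nrg1 (chr8:31814551-32884029, minus strand) was the rarer. It was positive in 14 cells of all (6.28%, 3.47 to 10.3%), 5 at E18, 7 at P2 and 2 at P5. No read pair was counted in P2 type 3, P5 type 1 or P5 type 3 INs, which allows up to 23.1%, 8.82% and 13.6% of positive cells. At E18 none of 59 Erbb4+ cells was Nrg1+ (up to 6.06% by the interval), against 5 of 23 without Erbb4 (21.7%, 7.46 to 43.7%). The intervals lay apart, and no E18 cell was positive for both. By set the counts were 0 of 38 and 2 of 10 in B, 0 of 5 and 1 of 4 in C, and 0 of 16 and 2 of 9 in D. Of the 5 Nrg1+ cells, 3 were among the 12 with excitatory markers, at 267, 221 and 12.8 RPM. The other 2 had 70.04 and 29.3 RPM with no excitatory marker. Without the 12 cells, 57 of 70 E18 cells were Erbb4+ and 2 of 70 Nrg1+, too few to tell whether the genes are in separate cells. The separation also depended on the threshold. The Nrg1+ cell at 12.8 RPM had 7.34 RPM of Erbb4, and another E18 cell had 511.5 RPM of Erbb4 with 2.91 RPM of Nrg1. After birth the separation was not seen. Nrg1 was positive in 4 of 50 Erbb4+ cells and 3 of 16 others at P2, and in 2 of 57 and 0 of 18 at P5. The higher of the 2 P5 cells, a type 2 IN at 288 RPM, had all 7 markers of astrocytes or radial glia, and the lower, at 25.98 RPM, was the cell with 4 Cajal-Retzius markers. Nrg1 is overlapped on the opposite strand by 2 annotated genes, and whether the counting used strand is not given in the sources used here.

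**Figure D3:**
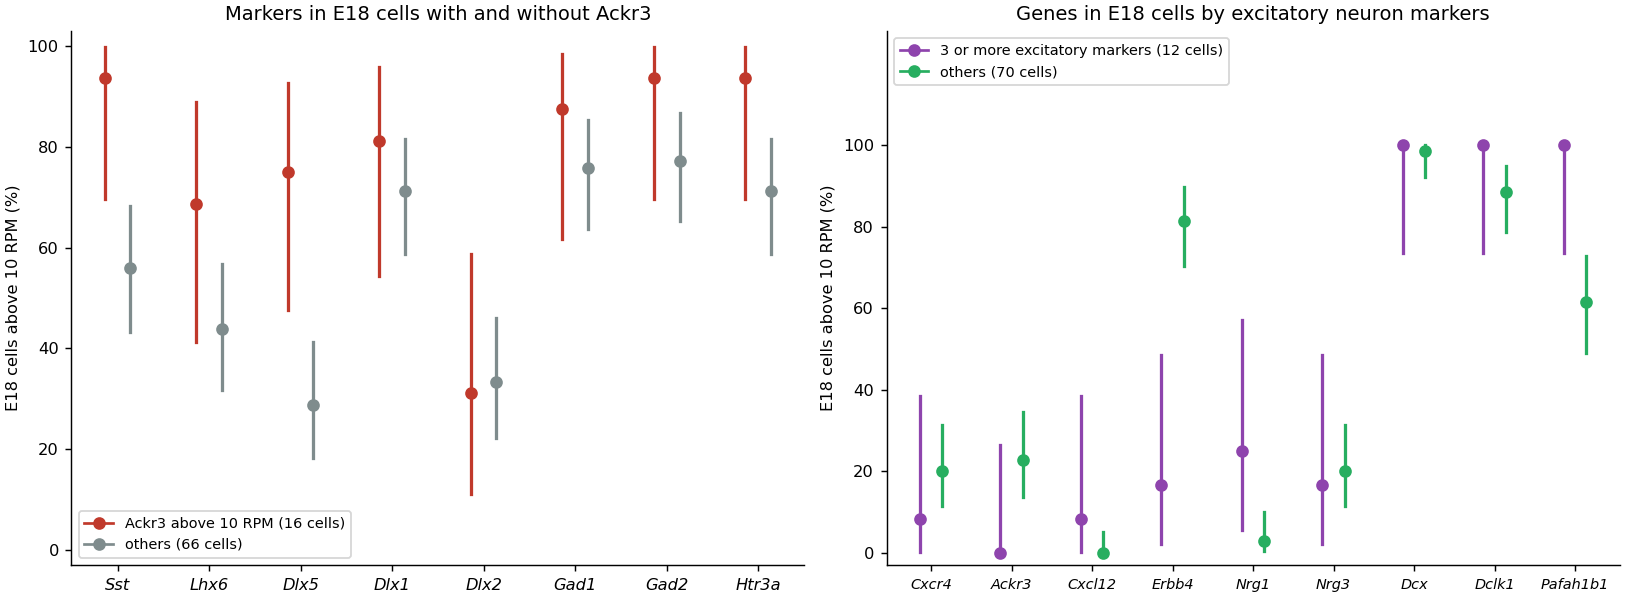
Shares of E18 cells above 10 RPM, in percent, with exact binomial 95% intervals. Left, IN and MGE markers in the 16 Ackr3+ cells (red) and the 66 others (grey), where Sst (93.8% and 56.1%) and Dlx5 (75% and 28.8%) have intervals that do not overlap. Right, the 9 genes in the 12 cells with 3 or more excitatory markers (purple) and the 70 others (green), where Erbb4 (16.7% and 81.4%) and Pafah1b1 (100% and 61.4%) lie apart over all library sets, although in set D alone Pafah1b1 was positive in 9 of 9 and 11 of 16 cells.

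Nrg3 (chr14:38368952-39473088, minus strand) was positive in 38 cells of all (17.04%, 12.3 to 22.6%) and had at least 1 read pair in 171. By type it was least often detected in type 1 INs at both ages. The positive cells numbered 2 of 22, 5 of 31 and 5 of 13 among types 1, 2 and 3 at P2. At P5 they numbered 1 of 34, 5 of 19 and 4 of 22, and the intervals overlapped between all types of an age (at P5 0.0744 to 15.3% in type 1 and 9.15 to 51.2% in type 2). Pooled levels were 20.5, 37.4 and 199 RPM at P2 and 2.97, 43.5 and 21.5 RPM at P5. Without the highest cell of each group they were 6.61, 21.3 and 79.9 RPM, and 0.401, 24.02 and 10.4 RPM. Type 1 was lower than the other types by a log2 ratio of -1.77 at P2 and -3.09 at P5 (-2.63 and -4.08 without the highest cell of each side), and at P5 it was lower in each library set, by -3.45, -4.27 and -4.31. The P2 type 3 level came from 5 cells, the highest at 1571 and 670 RPM. Nrg3 overlaps 1 annotated gene on its own strand and 3 on the other, one of them its antisense RNA Nrg3os, so part of its low counts may belong to them.

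Nrg3 was about as frequent with its receptor as without it over all cells, in 28 of 166 Erbb4+ cells (16.9%) and 10 of 57 others (17.5%), but the ages differed in order. At P2 all 12 Nrg3+ cells were Erbb4+, that is 12 of 50 Erbb4+ cells (24%, 13.1 to 38.2%) and 0 of 16 others (interval up to 20.6%). At E18 it was positive in 8 of 59 Erbb4+ cells (13.6%, 6.04 to 24.98%) and 8 of 23 others (34.8%, 16.4 to 57.3%), and at P5 in 8 of 57 and 2 of 18. The intervals overlapped at every age, and the order at E18 was opposite to that at P2. In all, 2 cells were positive for both Nrg1 and Nrg3.

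Dcx and Dclk1 were the most widely detected of the 9 genes, and both were lowest in type 3 INs. Dcx (chrX:143855842-143933311, minus strand) was positive in 213 cells and had at least 1 read pair in every cell. Its pooled level was 1704 RPM at E18, 1639, 1320 and 1001 RPM in types 1, 2 and 3 at P2, and 1414, 1343 and 418 RPM at P5. The median cell of P5 type 3 INs had 258 RPM, the lowest 1.62 and the highest 1461, against medians of 1155 in type 1 (230 to 3048) and 1302 in type 2 (4.38 to 3779). The groups overlapped, but 18 of 19 type 2 and all 34 type 1 INs were positive beside 20 of 22 type 3 INs, so the difference was in level more than in the share of cells. Of the 10 cells of the series that were not positive for Dcx, 6 were type 3 INs, 4 of them at P2.

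Dclk1 (chr3:55242364-55539068, plus strand) had pooled levels of 630 RPM at E18, 459, 467 and 222 RPM at P2 and 542, 755 and 181 RPM at P5. The P2 type 3 level rested on 1 cell at 1506 RPM and was 84.2 RPM without it, and the median cell had 1.62 RPM. At P5 the medians were 343, 455 and 42.01 RPM. It was positive in 5 of 13 type 3 INs at P2 (38.5%, 13.9 to 68.4%) and 17 of 22 at P5 (77.3%, 54.6 to 92.2%). Dclk1 overlaps 4 annotated genes on its strand and 2 on the other.

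In type 3 INs at P5 Dcx was lower than in the other types by a log2 ratio of -1.73 and Dclk1 by -1.76. All genes compared had a median of -0.58 there, where a smaller share of mapped pairs was counted on genes (32.1%). Relative to that median the values were -1.15 and -1.18, and scaled to counted pairs they were -0.98 and -1.01, so the direction held under each scaling while the size shrank. Both were lower within each library set too, Dcx by -1.26, -1.38 and -1.72 and Dclk1 by -1.77, -1.90 and -1.81 in sets B, C and D. At P2 the type 3 values were -0.54 for Dcx and -1.06 for Dclk1 beside a median of -1.02 for all genes, and relative to that median they were 0.48 and -0.04. The P2 values depended on single cells, since Dclk1 was at -2.33 without the highest cell of each side (Dcx at -0.76), and as means of log2(RPM + 1) Dcx was at -2.63 and Dclk1 at -2.82.

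Pafah1b1 (chr11:74673949-74724670, minus strand) differed from Dcx and Dclk1 in its pooled level in type 3 INs at P5, but not by every measure. It was positive in 55 of 82 cells at E18 (67.1%, 55.8 to 77.1%), in 8 of 22, 18 of 31 and 3 of 13 INs of types 1, 2 and 3 at P2, and in 22 of 34, 17 of 19 and 13 of 22 at P5. Its pooled level in type 3 INs was 33.01 RPM at P2, a log2 ratio of -1.96 against the other types (-0.93 relative to the median of all genes). At P5 it was 153 RPM, a ratio of 0.24 (0.82 relative to that median, and 0.99 scaled to counted pairs). In library set B, which holds 2 of the 22 cells, the P5 ratio was -3.29. As a mean of log2(RPM + 1) over all sets the P5 ratio was -0.45. The share of positive cells at P5 was 59.1% in type 3 INs and 73.6% in the others. Within type 3 the P5 to P2 ratio was 2.18, with 1.92 relative to the median of all genes. One P2 type 3 cell, at 447 RPM, was the cell at 1595 RPM of Cxcr4 described above, and without the highest cell of each side the P2 level was 13.7 RPM, the ratio to the other types -2.78 and the P5 to P2 ratio 2.99. All 12 E18 cells with excitatory markers were positive, against 43 of the 70 others (61.4%, 49.03 to 72.8%). The library sets differed in Pafah1b1 at E18, with 27 of 48 cells positive in set B and 20 of 25 in set D, and within set D, which held 9 of the 12, the counts were 9 of 9 and 11 of 16. It has 2 named pseudogenes, to which part of its reads could belong.

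The 3 microtubule genes were positive together in 52 of 82 cells at E18. The numbers were 3 of 22, 15 of 31 and 0 of 13 in types 1, 2 and 3 at P2. In the P5 cells they were 21 of 34, 16 of 19 and 8 of 22. The levels of any pair of the 9 genes were only weakly related across cells, with r at most 0.25 in size (Cxcr4 and Dcx, -0.25), and after group means were removed the largest in size was that of Cxcl12 and Nrg1 (0.24).

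**Figure D4:**
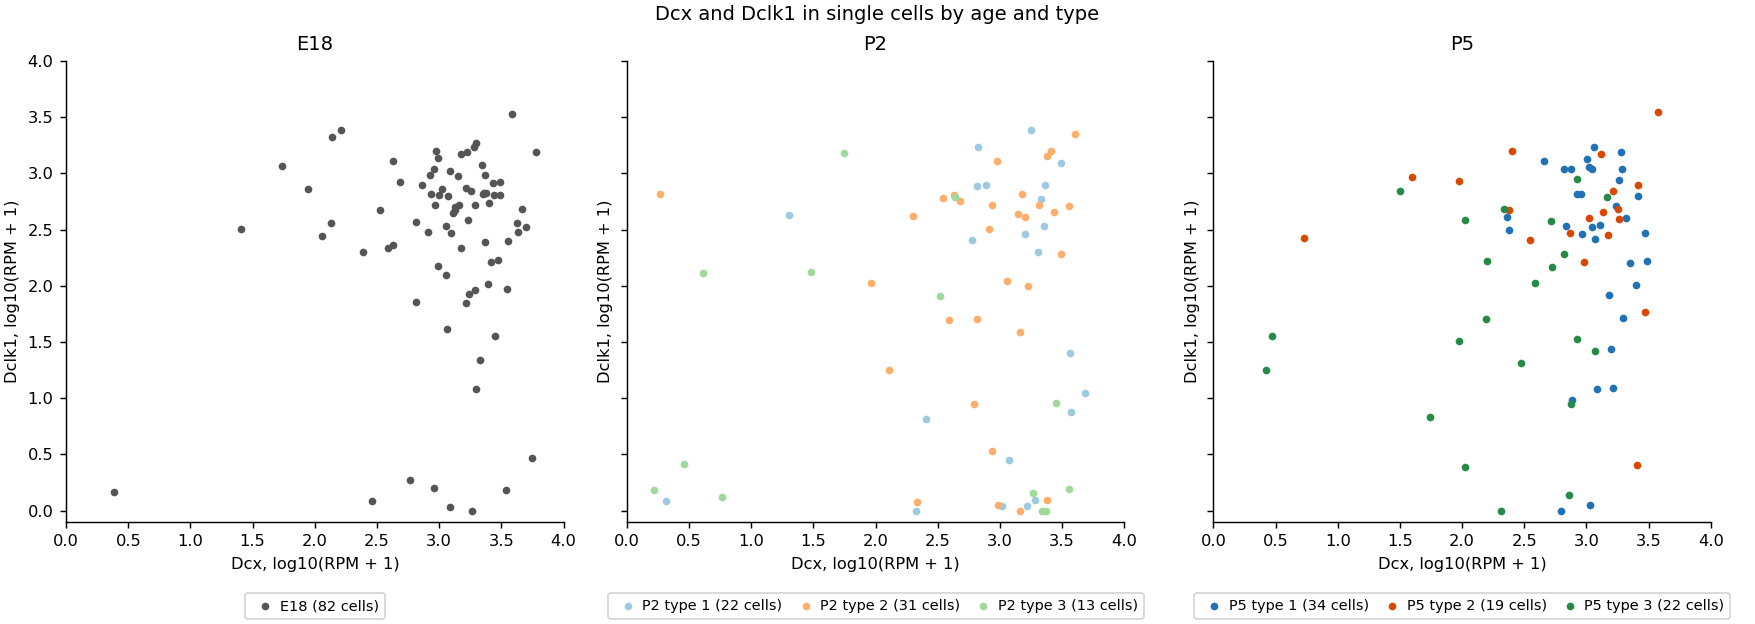
Dcx (horizontal) and Dclk1 (vertical) in every cell as log10(RPM + 1), with E18, P2 and P5 in separate panels and types in colours. At P5 the type 3 INs (dark green) lie to the left of and below most cells of types 1 and 2, with pooled Dcx of 418 RPM against 1414 and 1343 RPM.

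The counts of called genes were read against all 14064 genes compared, a call being a log2 ratio of at least 1 in size. In type 3 INs at P5 none of the 9 genes was higher and 5 were lower, where 42.2% of all genes were lower and 15% higher. At P2, 2 were higher in type 3 INs and 4 lower, beside 13.9% and 50.3%. The split depended on the scaling. Less the median of all genes it was 1 higher and 4 lower at P5 (24.7% and 32.1% of all genes) and 2 and 2 at P2 (31.1% and 36.3%), and scaled to counted pairs it was 2 and 3 at P5 (27.3% and 34.4%). In type 1 INs 2 were higher and 1 lower at P2 (19% and 33.1% of all genes), and 2 and 3 at P5 (21.7% and 25.9%). In type 2 INs 1 was higher and 2 lower at P2 (28.8% and 21%), and 3 and 2 at P5 (23.2% and 22.6%). These counts are near the shares of all genes, as pooled ratios of few cells often pass this limit, and they include genes with no read pair on 1 side. As means of log2(RPM + 1) the genes that passed in type 2 INs differed in part, and none was lower. At P2 they were Erbb4 (1.21), Dclk1 (1.91) and Pafah1b1 (1.67). At P5 they were Erbb4 (1.35), Nrg3 (1.11), Dclk1 (1.61) and Pafah1b1 (1.18). The share of all genes passing on that scale was not computed.

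Between ages, 3 of the 9 were higher and 1 lower at P2 than at E18 (16.1% and 24.8% of all genes), the higher ones being Cxcr4, Cxcl12 and Nrg1, each carried by a few cells, and Ackr3 the lower. As means of log2(RPM + 1), Dclk1 and Pafah1b1 also passed the limit at P2 against E18, at -2.06 and -1.54. The share of all genes passing on that scale was not computed, and the median P2 cell had 1912 genes above 10 RPM, against 2496 at E18. On that scale the P5 to P2 values were 1.96, 1.67 and 2.08 for Dclk1 and 1.37, 1.28 and 2.43 for Pafah1b1 in types 1, 2 and 3. Dclk1 was positive in 74 of 82 cells at E18 (81.7 to 95.7%) and 44 of 66 at P2 (53.99 to 77.8%), and these intervals lay apart. At P5 Ackr3 alone of the 9 passed, as lower (22.6%), and none was higher (15.4%), whereas scaled to counted pairs 1 was lower and 1 higher (20.4% and 19.5%). From P2 to P5, 1 was higher and 4 lower in type 1 INs (29.5% and 19.9%), 1 and 0 in type 2 (24.6% and 24%, or 1 and 1 beside 23.4% and 27.5% when scaled to counted pairs), and 2 and 3 in type 3 (36.3% and 19.8%). The comparisons with E18 share the E18 cells.

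**Figure D5:**
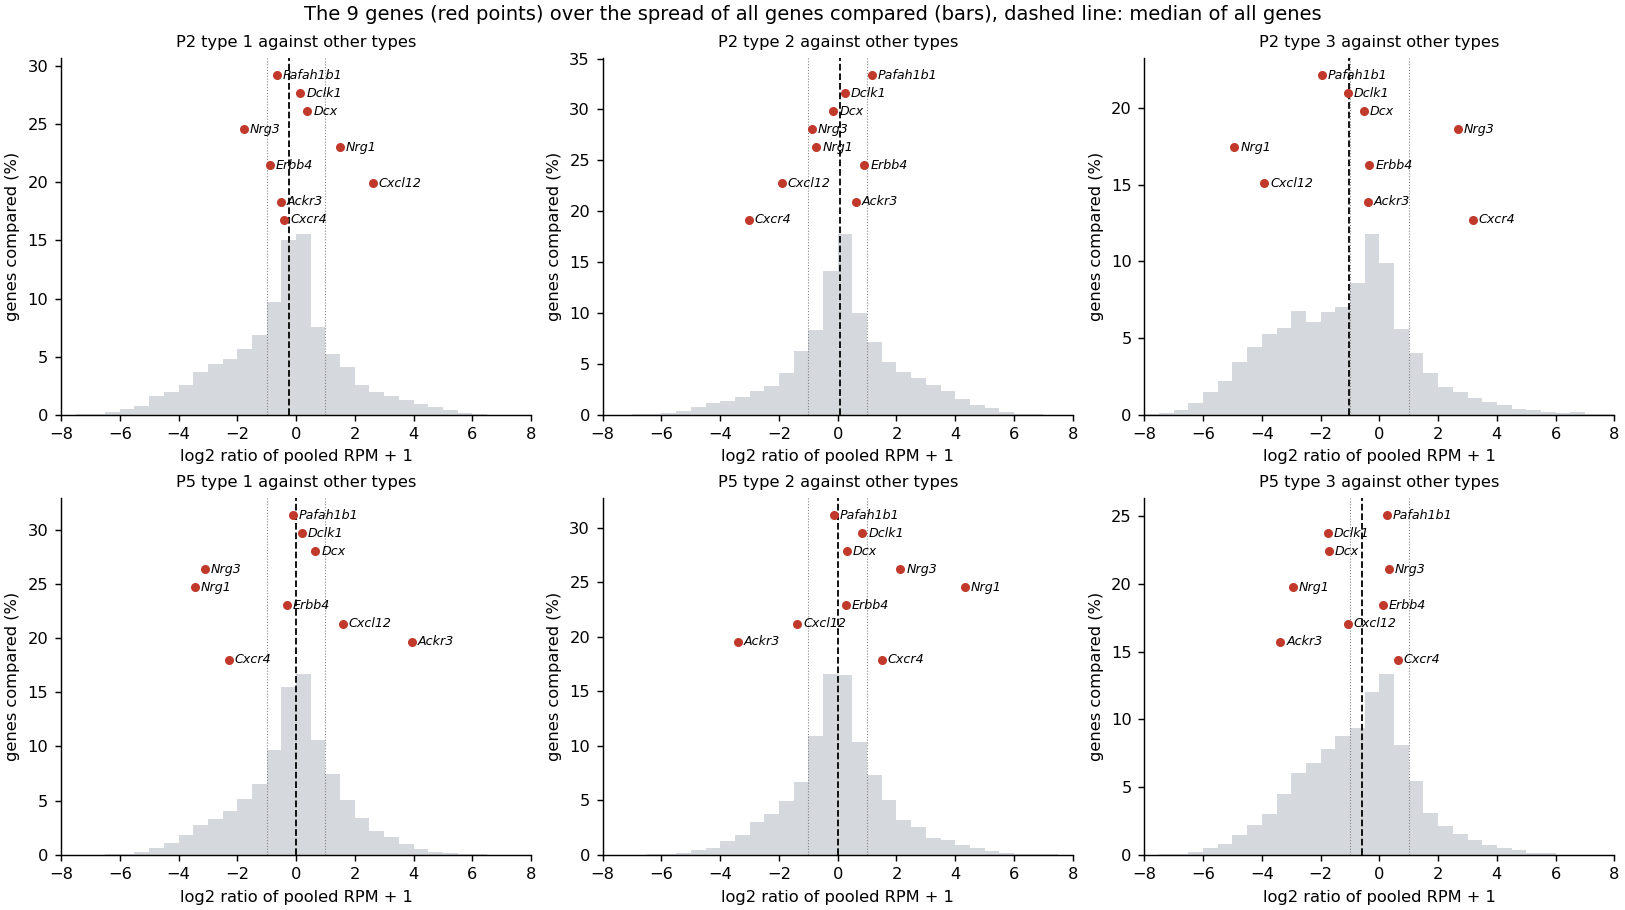
The log2 ratio of pooled RPM + 1 of each type to the rest of the same age for the 9 genes (red points, height without meaning) over the percent of the 14064 genes compared in bins of the ratio (grey bars). The dashed line is the median of all genes and the dotted lines are -1 and 1. In type 3 INs that median lies at -1.02 at P2 and -0.58 at P5, and Dcx and Dclk1 lie below it at P5. Ratios of Ackr3, Cxcl12 and Nrg1 with no read pair on 1 side depend on the 1 RPM added.

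Partners of the 9 genes were taken from 4 lists, 55 genes of which 46 had at least 1 RPM over all cells. In the LIS1, dynein and doublecortin list 12 of 21 genes were lower and 1 higher in type 3 INs at P5 (42.2% and 15% of all genes), and 11 and 2 at P2 (50.3% and 13.9%). Less the median of all genes the P2 counts were 7 lower and 6 higher (36.3% and 31.1%). Scaled to counted pairs the P5 counts were 10 and 2 (34.4% and 27.3%). The list's median ratio at P5 was -1.55 beside -0.58 for all genes, and at P2 -1.42 beside -1.02. Lower in type 3 INs at both ages were Tuba1a, an alpha tubulin of young neurons (369 RPM against 1090 at P2 and 160 against 1477 at P5), Map1b, a microtubule-associated protein of growing axons (1444 against 3852, and 676 against 4561), Dync1h1, the dynein heavy chain (67.4 against 330, and 46.9 against 215), the dynein chains Dync1li1 (18.3 against 171, and 30.8 against 118) and Dync1i1 (0.024 against 41.3, and 29.95 against 117), and Pafah1b3, a catalytic partner of LIS1 in its acetylhydrolase (1.07 against 54.7, and 20.7 against 78.5). Relative to the median of all genes, Tuba1a and Map1b were at -0.54 and -0.39 at P2 and at -2.62 and -2.17 at P5, so at P2 they did not pass the limit on that scale. The share of Dync1i1+ cells at P5 was 31.8% in type 3 and 33.96% in the rest, and without cells that carry markers of another cell type its level in the other types at P2 was 22.9 RPM. These were the genes that the rule for naming partners chose. It asked for a ratio of at least 1 in the same direction in the same type at both ages. It also asked for 25% or more positive cells on the higher side at either age.

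In the chemokine list, the rule for naming partners chose Gnai2 and Gnai3, genes of Gi subunits, the class that carries the CXCR4 signal. Gnai1, another Gi subunit gene of the list, was not chosen. Gnai2 was higher in type 1 INs at both ages (74.6 RPM against 16.6 at P2, and 94.4 against 9.71 at P5) and lower in types 2 and 3. Gnai3 was the reverse, lower in type 1 (29.0 against 80.8, and 28.4 against 88.6) and higher in type 2 INs. Few cells were positive for either gene. In type 1 INs the share of Gnai2+ cells was 36.4% against 9.09% at P2 and 32.4% against 12.2% at P5. For Gnai3+ cells it was 13.6% against 27.3% at P2 and 20.6% against 29.3% at P5. Gnao1, of the Go class, was lower in type 3 INs (129 against 443, and 75.3 against 433), but relative to the median of all genes its P2 ratio was -0.75, short of the limit, and at P5 the share of positive cells was 90.9% in type 3 and 88.7% in the rest. The directions of these genes were the same scaled to counted pairs and relative to the median of all genes. As a list, 2 of its 11 genes were higher and 6 lower in type 1 INs at P2 (19% and 33.1% of all genes), and 3 and 3 at P5 (21.7% and 25.9%). In type 2 INs 6 and 3 were at P2 (28.8% and 21%), and 3 and 2 at P5 (23.2% and 22.6%). In type 3 INs 1 and 8 were at P2 (13.9% and 50.3%), and 0 and 2 at P5 (15% and 42.2%). Less the median of all genes the type 3 counts were 2 and 4 at P2 (31.1% and 36.3%) and 2 and 2 at P5 (24.7% and 32.1%), and scaled to counted pairs 3 and 3 at P5 (27.3% and 34.4%).

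In the ERBB list, Egfr, the receptor of EGF-like ligands, was lower in type 1 INs (2.15 RPM against 29.99 at P2, and 8.13 against 48.4 at P5) and had a higher pooled level in type 2 INs (36.9 against 2.89, and 69.5 against 14.1). The share of Egfr+ cells at P5 was in the other order, 26.3% in type 2 and 28.6% in the rest. Cells with 3 or more markers of another cell type were all of type 2 at P5, and without them, in 14 cells, the Egfr level was 92.1 RPM. Adam17, a protease that sheds neuregulins from the membrane, followed the same order, lower in type 1 (8.14 against 42.9, and 9.22 against 42.2) and higher in type 2. Of the 10 genes of this list, 1 was higher and 2 lower in type 1 INs at P2, and 1 and 4 at P5, while in type 2 INs 3 and 2, then 4 and 1, were. In type 3 INs 1 and 4 were at P2 and 0 and 3 at P5. The shares of all genes are those given above for each comparison, 19% and 33.1%, then 21.7% and 25.9%, in type 1, 28.8% and 21%, then 23.2% and 22.6%, in type 2, and 13.9% and 50.3%, then 15% and 42.2%, in type 3. The type 3 counts of this list turned with the scaling. At P2 they were 5 higher and 1 lower less the median of all genes (31.1% and 36.3%), and 2 and 3 scaled to counted pairs (16.5% and 51.3%). At P5 they were 0 and 2 less the median (24.7% and 32.1%), and 1 and 2 scaled to counted pairs (27.3% and 34.4%). In the reelin list of 4 genes, Reln, the secreted protein that guides neurons to their layer, was lower in type 1 INs (41.3 against 643, and 65.9 against 788). Without the cells that carry markers of another cell type the level of the other types at P2 was 311 RPM. The other reelin genes passed the rule in no type.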

How the data were processed

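Single Htr3a-GFP+ cells were captured on microfluidic chips, and their polyA RNA was amplified and sequenced as read pairs. The authors aligned the pairs to GRCm38 with TopHat2 and counted them per Ensembl gene with HTSeq 0.6.1, and the deposited values are raw counts of read pairs for 43629 genes in 223 cells that passed their quality filters. Counts were multiplied by the coefficient per cell that the labels give, which makes them read pairs per 1000000 mapped (RPM). The members and gene lists were chosen with earlier results of these data known. The E18 cells with excitatory markers were set apart after values had been seen.

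Levels of each group were pooled RPM with exact Poisson intervals (95%) and shares of cells above 10 RPM with exact binomial (Clopper-Pearson) intervals, both for counting error only, since amplified reads without molecular identifiers are not separate molecules. A count of 0 was read as up to 3 cells. Groups were compared as the log2 ratio of pooled RPM with 1 RPM added, for 14064 genes with a pooled level of at least 1 RPM over all cells, in 11 comparisons, and a gene was called at a ratio of 1 in size. No test was made, because each age is 1 pool of animals. Genes named besides the 9 are partner genes called in the same direction in the same type at both ages and found above 10 RPM by 25% or more of cells on the higher side at one age, and genes with a Pearson r of at least 0.5 with a member, of which there was none.

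A cell counted as carrying markers of another cell type with at least 3 of a list above 10 RPM. The lists were for INs, MGE INs, excitatory neurons, Cajal-Retzius cells, astrocytes or radial glia, pericytes, endothelial cells, microglia, the oligodendrocyte lineage, erythrocytes and meningeal fibroblasts. This left 12 cells with excitatory markers (all at E18), 3 with astrocyte or radial glia markers (all at P5), 2 with Cajal-Retzius markers, and 1 each with oligodendrocyte lineage and pericyte markers. No cell reached 3 markers of MGE INs, microglia, endothelial cells or meningeal fibroblasts, and the 4 erythrocyte markers had no read pair. For MGE INs this limit could hardly be reached, since of the 4 genes Pvalb had no read pair and Nkx2-1 was positive in 1 cell. At least 1 MGE marker was positive in 79 cells, 62 of them at E18. Of the 5 endothelial markers, Cldn5 and Cdh5 had no read pair. No doublet caller was run. Positions, exon lengths and overlaps are from GENCODE on GRCm38, and promoter windows from RefSeq. Counts were simulated for the P5 type 3 comparison over 43629 genes. Of these, 200 genes with at least 10 RPM over the P5 cells were changed, with a noise setting shared by all genes. The sign was right in 89.7% of genes changed by a log2 of 1 and 99.0% of those changed by 2. Cxcr4, Ackr3, Cxcl12 and Nrg1 were below 10 RPM at P5 (8.67, 7.04, 5.89 and 5.02 RPM), so the simulation does not cover genes at their level. Alternatives used Python 3.11.15, edgeR 4.0.16 (TMM factors) and DESeq2 1.42.0 (size factors) on pooled counts.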

Additional observations from a re-analysis of the deposited data

Results flagged for a closer look

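Cxcr4 ratios pointed in opposite directions between types and ages. Type 2 INs stood at a log2 ratio of -3.02 to the rest at P2, and of 1.502 at P5 (-0.30 in library set D). From P2 to P5 the ratio was -3.29 in type 1 and -3.64 in type 3 INs but 1.15 in type 2 INs. These opposite directions were not tested, since each age is 1 pool and P2 is 1 library set. The shares of Cxcr4+ cells had overlapping intervals in all 7 groups. Without the highest cell of each side the P5 to P2 ratios were -2.40, -4.16 and 0.64 in types 1, 3 and 2. As means of log2(RPM + 1) they were -0.53, -0.73 and 0.26 in that order, short of a ratio of 1, and in type 3 INs the Cxcr4+ cells numbered 3 of 13 at the earlier age and 6 of 22 at the later one.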

How the results depend on the processing

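Every cell was covered by at least 3707601 mapped pairs, and when all were thinned to that number 55 of 63 shares of positive cells stayed as they were, with a largest change of 7.69 percentage points. Rare genes rest on single cells, a pool is not a replicate, and P2 was 1 library set. No paired analysis was possible because the replicate numbers name cells only, but E18 and P5 cells, and the types at P5, were also compared within library sets B, C and D. Of 155 recounts of called genes 125 stayed within 1.5 times. Of 478 alternative values of the 43 called ratios, 459 kept their sign and 396 stayed at 1 or more in size. The sizes were less stable than the signs. Of 1098 alternative values of ratios, called or not, 193 were classed as the same, 896 as moved and 9 as reversed. Among alternative values of shares of cells 66 of 252 moved, as did 9 of 24 counts of cells. Ratios less the median of all genes, and those of partner genes without cells that carry markers of another type, were added after the data had been seen.

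Counts of called genes that moved are given here from the count reported. With calls at a log2 ratio of 2 they went from 3 to 1 for types 1 and 2 at P2, from 5 to 3 and from 5 to 2 for types 2 and 3 at P5, from 4 to 1 for P2 against E18, and from 1 to 0 and 5 to 3 for P5 against P2 in types 2 and 3. Without the highest cell of each side they were 1 for type 2 at P2, 2 and 3 for types 1 and 3 at P5, and 4 for P5 against E18 (from 1). With 10 RPM added they were 3, 2 and 2 for types 1, 2 and 3 at P5 and 0 for P5 against P2 in type 2, and with 0.1 RPM added 2 for P5 against E18 and 3 for P5 against P2 in type 2. As means of log2(RPM + 1) they were 2 for type 3 at P5, and 3, 2 and 3 for P5 against P2 in types 1, 2 and 3. For P5 against E18 they were 2 scaled to counted pairs and as mean RPM, 4 without cells with markers of another type, and 4 and 6 in library sets B and C. For P5 against P2 in type 2 they were 2 scaled to counted pairs, 0 as mean RPM and 2 without cells with markers of another type, and for type 2 at P5 3 in library set D.

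Values that reversed were those of Cxcl12 without the highest cells (-0.0084 and 0.015 for types 1 and 2 at P2, from 2.62 and -1.90, and 1.76 for P5 against P2 in type 1, from -1.44, which was 0.12 as a mean of log2 values) and in library set B (-1.87 and 3.41 for types 1 and 3 at P5, from 1.598 and -1.08). Cxcr4 in type 2 at P5 was -0.30 and Ackr3 at P5 against E18 was 0.044 in set D. Dcx for P5 against P2 in type 3, -1.26 as reported, was 0.59 as a mean of log2 values. The cause was not tested.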
